A study of Mus musculus with 12 samples.

Results

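The Notch receptors, ligands and Hes/Hey targets described here are 10 genes of the 13650 genes tested on these arrays: the receptors Notch1, Notch2, Notch3 and Notch4, the ligands Dll1, Dll3 and Jag1, and the targets Hes1, Hes5 and Hey1. They were chosen by name, as members of 1 signalling pathway, with earlier results of these data already known. A gene was read by the probe set that names only that gene and has the highest mean signal over the 12 arrays. The 10 genes had 18 such probe sets, of which 15 reached a signal of 20 on at least 1 array, and all 10 genes were tested. The RNA came from mouse cell cultures and was hybridised to Affymetrix arrays; the values are MAS5 signals on a linear scale with a trimmed mean of 100 on every array.

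The 12 arrays fall into 7 groups. Neurospheres are balls of neural progenitors grown in suspension, and 1 array held those of the ganglionic eminence (GE), where many forebrain interneurons arise, taken at embryonic day 14. A further array held fibroblasts of adult skin. The pluripotent group consisted of the induced pluripotent stem (iPS) line 38C2 as replicate 1 and the embryonic stem (ES) line EB3 as replicate 2, and each line also gave 1 array of primary neurospheres and 1 of secondary neurospheres. Neurospheres derived from adult fibroblasts were grown with EGF and cAMP (replicate 1) or with leukaemia inhibitory factor, LIF (replicate 2), and those derived from embryonic fibroblasts with LIF (replicate 3) or with LIF and cAMP (replicate 4). The labels give C57BL/6 as the strain of the samples other than the iPS and ES cells and the spheres made from them, and the medium MHM for the neurospheres. They name no transgene and do not say how the fibroblasts became neurospheres, which the series title calls directly induced neural stem cells. Arrays of a group differ in line or medium and are not said to be repeat cultures, so a p-value here reflects only how far these arrays spread. That spread takes in line or medium together with any technical part, and these cannot be told apart. GE neurospheres and adult fibroblasts have 1 array each and were assumed to vary like the other groups.

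Notch receptors are single-pass membrane proteins that are cut when a Delta-like or Jagged ligand on a neighbouring cell binds them. The released intracellular domain enters the nucleus, joins the DNA-binding protein Rbpj and a Mastermind coactivator, and turns on genes of the Hes and Hey families. These encode basic helix-loop-helix repressors that hold back proneural factors such as the neurogenins, and in the embryonic forebrain they keep radial glia undifferentiated, while cells that turn on proneural factors make more Dll1 and present it to their neighbours. Hes1 is unusual among them in being expressed in many tissues, and Hes5 in being largely a gene of neural progenitors.

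Promoter sequence is shown for Hes5, the target with the widest range of signal over the arrays, and for the Delta-like ligand genes that varied with it. The RefSeq promoter table of build GRCm38.p6 held 9 entries for 8 of the 10 genes, and Hes1 and Hey1 had none. In the 250 bases before each start, the Rbpj (CSL) site GTGGGAA was searched on both strands. Hes5 was the only gene of these with a match, and it had 2: 226 to 220 bases before the start on the minus strand and 83 to 77 bases before it on the plus strand. Of 32851 promoters of the same length, 5.42% held at least 1 match and 0.161% held 2 or more. The Hes5 stretch lies at chr4:154960673-154960922 on the plus strand, upstream of the transcribed region, and its capitals mark the 2 matches.

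Hes5: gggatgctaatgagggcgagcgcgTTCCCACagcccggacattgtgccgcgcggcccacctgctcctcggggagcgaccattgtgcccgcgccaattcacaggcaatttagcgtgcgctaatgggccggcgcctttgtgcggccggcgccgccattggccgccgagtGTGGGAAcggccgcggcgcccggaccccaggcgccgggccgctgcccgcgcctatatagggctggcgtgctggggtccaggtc

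Dll1 and Dll3 are shown because proneural factors bind E-boxes, CANNTG, a palindrome that reads the same on both strands. A match to it is common: 66.2% of the 32851 promoters held at least 1. Dll1 had 2 entries on the minus strand of chromosome 17, chr17:15375824-15376073 with 1 E-box and chr17:15376933-15377182 with 3. Dll3, at chr7:28301786-28302035 on the minus strand, had 2. Capitals mark the E-boxes, none of these entries held a CSL match, and no match was tested for function.

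Dll1, first entry: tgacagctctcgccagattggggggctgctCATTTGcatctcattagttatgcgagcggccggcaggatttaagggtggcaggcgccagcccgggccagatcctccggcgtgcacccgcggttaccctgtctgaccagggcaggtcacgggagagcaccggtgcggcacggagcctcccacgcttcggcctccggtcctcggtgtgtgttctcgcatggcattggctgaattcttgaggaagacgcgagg
Dll1, second entry: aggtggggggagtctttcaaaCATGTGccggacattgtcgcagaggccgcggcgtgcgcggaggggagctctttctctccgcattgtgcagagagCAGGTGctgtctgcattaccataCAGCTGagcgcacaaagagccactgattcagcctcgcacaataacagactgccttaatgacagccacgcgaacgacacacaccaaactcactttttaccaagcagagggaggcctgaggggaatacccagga
Dll3: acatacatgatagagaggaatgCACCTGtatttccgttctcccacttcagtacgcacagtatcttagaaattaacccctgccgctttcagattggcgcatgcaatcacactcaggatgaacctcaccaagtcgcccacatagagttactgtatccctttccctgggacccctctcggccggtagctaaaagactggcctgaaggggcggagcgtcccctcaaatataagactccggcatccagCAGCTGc

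The labelled cell types were set against marker lists. Between 40.5% and 49.1% of all probe sets reached a signal of 20 per array. The 9 neural stem and radial glia markers summed to 16037 in GE neurospheres, 9672.7 to 9985.4 in primary and 14026 to 14959 in secondary neurospheres, 1324.8 to 3219.9 in the 4 fibroblast-derived arrays, 3592.7 to 3932.9 in pluripotent cells and 145.1 in fibroblasts, and all 9 reached 20 in every neurosphere array that was not fibroblast-derived. In the fibroblast-derived arrays 8 of the 9 reached 20. Sox2, which is also a factor of pluripotent cells, made most of this sum in the embryonic-derived pair and a smaller part in the adult-derived pair. The sum therefore does not order these arrays by neural content. The 8 pluripotency markers summed to 20762 and 22046 in the pluripotent cells, 59.9 in GE neurospheres and 2793.9 to 12551 in the fibroblast-derived arrays, of which 7 or 8 reached 20, and they also summed to 9057.2 in primary neurospheres of the ES line against 251.0 in those of the iPS line. The 8 fibroblast markers summed to 31583 in fibroblasts and 1078.5 to 3413.2 in the fibroblast-derived arrays. The same list summed to 1038.1 in GE neurospheres and to 1546.7 (iPS) and 4606.4 (ES) in secondary neurospheres. It was 194.6 and 428.3 in primary neurospheres and 383.6 and 102.1 in pluripotent cells (iPS first). The ES-derived secondary neurospheres thus lay above every fibroblast-derived array. The oligodendrocyte lineage list summed to 13723 and the astrocyte list to 11156 in GE neurospheres, against 141.9 to 305.5 and 2730 to 2906.9 in the fibroblast-derived arrays. Only 1 or 2 of the 6 astrocyte markers reached 20 in the latter. The astrocyte list also summed to 2209.1 in ES cells, 2615.8 in ES-derived primary and 3394 in ES-derived secondary neurospheres. Along the iPS line it was 1131.2, 766.2 and 1681.5. The neuronal list summed to 14703 and 5958.8 in primary neurospheres, 1866.4 and 3021.6 in pluripotent cells, 2141.8 in GE neurospheres and 848.8 to 2270.4 in the fibroblast-derived arrays. The part of such cells in the values below was not tested.

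Notch1, the main receptor of embryonic neural progenitors, had a signal of 34.8 in adult fibroblasts, 91.8 in iPS cells and 105.6 in ES cells. It was 569.1 in iPS-derived and 459.5 in ES-derived primary neurospheres, 553.3 and 1115.6 in the corresponding secondary neurospheres, and 707.1 in GE neurospheres. The fibroblast-derived arrays gave 301.7 (adult, EGF and cAMP), 99.9 (adult, LIF), 153.4 (embryonic, LIF) and 107.8 (embryonic, LIF and cAMP). Every neurosphere array from pluripotent cells or GE was thus above every fibroblast-derived array, and the lowest of the latter, 99.9, lay between the iPS and ES values.

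Notch3, a receptor known from vascular smooth muscle and also expressed in neural progenitors, was likewise lowest in fibroblasts and higher in the neurospheres of GE and the lines than in the fibroblast-derived ones. It was 52.1 in fibroblasts, 235.1 and 138.3 in iPS and ES cells, 315.6 and 359.5 in primary and 409.0 and 596.6 in secondary neurospheres (iPS first), and 406.3 in GE neurospheres. In the fibroblast-derived arrays it was 98.4 and 140.3 (adult, replicates 1 and 2) and 144.9 and 158.7 (embryonic, replicates 3 and 4), so these overlapped the pluripotent cells and stayed below all other neurospheres. The 6 smooth muscle and pericyte markers summed to 14292 in fibroblasts, where Notch3 was lowest, and to 307.3 to 898.7 in the fibroblast-derived arrays.

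Notch2, a broadly expressed receptor, was 339.9 in fibroblasts and lowest in the pluripotent cells, at 106.8 (iPS) and 88.1 (ES). Along each line it was 122.2 and then 282.1 for iPS, and 311.1 and then 721.9 for ES. GE neurospheres gave 213.6, and the fibroblast-derived arrays gave 304.4, 389.3, 325.8 and 202.8 for replicates 1 to 4, a range that holds the fibroblast value and overlaps both kinds of line-derived neurosphere. The fibroblast value lay above GE and both primary neurosphere arrays and below the ES-derived secondary neurospheres.

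Notch4, the receptor best known from endothelium, stayed under 20 in fibroblasts (16.6), GE neurospheres (10.2) and iPS-derived secondary neurospheres (17.1). It was 57.3 and 31.3 in iPS and ES cells, 87.2 and 55.0 in primary neurospheres and 27.0 in ES-derived secondary neurospheres. The fibroblast-derived arrays gave 242.8, 28.8, 78.4 and 56.7 for replicates 1 to 4, so the adult culture in EGF and cAMP stood above every other array. This holds for the brightest Notch4 probe set only. The others reached at most 10.8 and 7.8 on any array, and read 1.2 and 2.6 in that culture.

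Beside Notch4, the 8 endothelial markers summed to 371.4 and 374.3 in the adult-derived and 605.8 and 1036.7 in the embryonic-derived arrays, against 59.9 to 251.0 in the other 8. Tek, a receptor of angiopoietins, made most of this sum in all 4 fibroblast-derived arrays (242.8, 249.1, 364.0 and 854.3), while Tie1 was at 0.2 to 1.3 and Cdh5, an endothelial cadherin, at 3.9, 8.9, 60.1 and 21.9. Pecam1 was at 11.6, 2.0, 46.8 and 49.6 in the same order. The highest endothelial sum, 1036.7 in embryonic-derived replicate 4, held 854.3 from Tek, so the order of the sums is largely that of 1 gene. The part of endothelial cells in the Notch4 values was not tested.

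Dll1, the Delta-like ligand made by cells that enter neurogenesis, was 13.3 in fibroblasts and 57.9 and 48.4 in iPS and ES cells. It was highest in primary neurospheres, at 471.7 (iPS) and 305.6 (ES), followed by secondary neurospheres, at 285.9 and 244.1, and GE neurospheres, at 242.0. The fibroblast-derived arrays gave 127.9 and 84.0 for the adult pair and 47.9 and 44.1 for the embryonic pair. The adult pair lay above and the embryonic pair below the pluripotent cells.

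Dll3, a divergent ligand that acts mainly inside the cell that makes it, was 5.9 in fibroblasts, 43.0 in iPS cells and 62.9 in ES cells. It was 364.5 and 350.3 in iPS-derived primary and secondary neurospheres, 185.0 and 143.3 in the ES-derived ones and 357.0 in GE neurospheres. The fibroblast-derived arrays, at 68.6, 44.7, 31.8 and 23.5 for replicates 1 to 4, overlapped the pluripotent cells and lay below every other neurosphere array.

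Jag1, a Jagged-class ligand, had a pattern of its own. GE neurospheres (72.6) and fibroblasts (77.5) were lowest and close to each other. Pluripotent cells gave 332.0 and 320.4, primary neurospheres 495.0 and 636.7, secondary neurospheres 557.0 and 715.6 (iPS first in each), and the fibroblast-derived arrays 434.3, 352.3, 314.8 and 254.5. The GE array was thus apart from every other neurosphere array for this gene, on the low side.

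Hes5 had the widest range of the 10 genes. It was 0.2 in fibroblasts, 1.6 in iPS cells and 5.0 in ES cells, all values near zero on this scale. GE neurospheres gave 1859.3, primary neurospheres 989.0 (iPS) and 681.6 (ES), and secondary neurospheres 781.9 and 180.5. In the fibroblast-derived arrays Hes5 was 59.7 and 31.1 in the adult pair and 0.7 and 1.9 in the embryonic pair, so only the adult pair reached 20, and all 4 stayed below the lowest other neurosphere value. In such bulk samples, fewer cells that express a gene and less RNA of it per cell cannot be told apart.

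Hey1, the Hey-family target, was 6.3 in fibroblasts and 23.5 and 22.9 in iPS and ES cells. It was 343.4 and 210.0 in primary neurospheres, 603.0 and 641.3 in secondary neurospheres and 395.1 in GE neurospheres. The fibroblast-derived arrays gave 48.1, 45.3, 34.0 and 58.0 for replicates 1 to 4. Each of them was above both pluripotent arrays and below every other neurosphere array, and the adult and embryonic pairs overlapped.

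Hes1, the target found in many tissues, followed another order. It was highest in iPS cells (252.2) and fibroblasts (227.7) and lowest in GE neurospheres (50.2). ES cells gave 84.8, primary neurospheres 97.1 and 149.0, secondary neurospheres 125.1 and 216.4 (iPS first), and the fibroblast-derived arrays 103.9, 124.9, 162.9 and 101.7. The span between the ES and the iPS value held every other array except that of GE neurospheres.

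**Figure D1:**
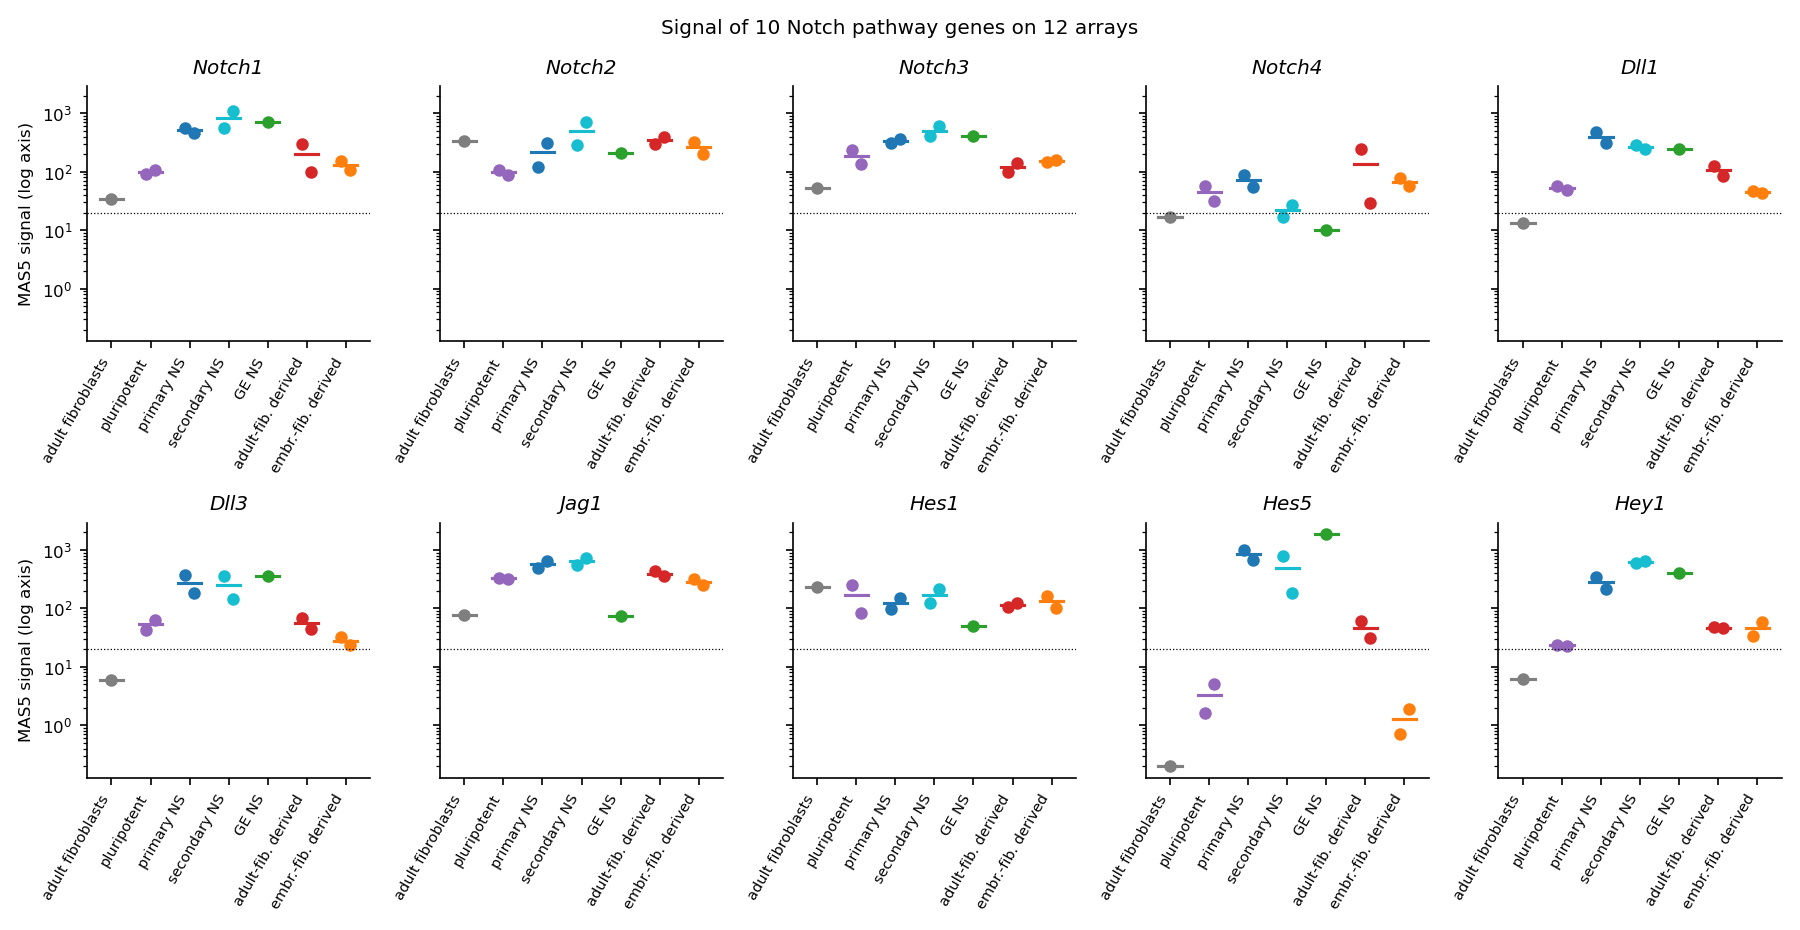
Signal of each gene on each of the 12 arrays (points; log axis) with the group mean as a bar and the signal of 20 used as the filter as a dotted line; NS stands for neurospheres and fib. for fibroblast. Hes5 runs from 0.2 in fibroblasts to 1859.3 in GE neurospheres, while Hes1 runs only from 50.2 to 252.2.

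Differences between groups were tested with limma on log2(signal + 5) and adjusted by the Benjamini-Hochberg method over all 13650 genes. Across the 7 groups, 7 of the 10 genes differed at an adjusted p under 0.05, beside 61.6% of all genes tested: Notch1, Notch3, Dll1, Dll3, Jag1, Hes5 and Hey1. Hey1 had an adjusted p of 0.000121, Hes5 of 0.000193, Dll1 of 0.000317 and Jag1 of 0.000407 in limma's F-test. The exceptions were Notch2 (adjusted p = 0.071), Notch4 (0.159) and Hes1 (0.265). A share of 7 in 10 is near that of all genes.

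Fibroblast-derived neurospheres were first set against the adult fibroblasts, the source of 2 of the 4 arrays; the other two came from embryonic fibroblasts, which were not analysed here. Of the 10 genes 6 were higher and 0 lower, beside 15.0% of all genes higher and 8.21% lower. Jag1 was higher by 2.03 on the log2(signal + 5) scale (SE 0.26, limma adjusted p = 0.0021), Hey1 by 2.16 (SE 0.36, 0.00491) and Dll1 by 2.02 (SE 0.34, 0.00508). All 4 fibroblast-derived arrays lay above the fibroblast array for each of these. Dll3 was higher by 2.02 (limma adjusted p = 0.0293), Notch3 by 1.28 (0.033) and Notch1 by 1.96 (0.0366).

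Without embryonic-derived replicate 3, or without replicate 4, these last 3 calls were lost, which left 3 genes called. Dll3 was also lost without adult-derived replicate 1 and Notch3 without adult-derived replicate 2. The same 3 calls were lost under quantile normalization or a common median per array. The median gene differed by 0.22 in this comparison, by 0.07 after quantile normalization and by -0.20 with a common median. The other 4 genes were not called. The differences were 1.91 for Notch4 (95% interval -0.11 to 3.92), 1.74 for Hes5 (0.15 to 3.34, limma adjusted p = 0.107), -0.19 for Notch2 (-1.52 to 1.15) and -0.88 for Hes1 (-2.18 to 0.41). For Hes5 the adult pair alone gave 3.22 (limma adjusted p = 0.0218) and a pseudocount of 1 gave 3.04 (0.0295). With the adult pair alone Notch3 lost its call (0.0808), and with the embryonic pair alone Notch1 (0.0805) and Dll3 (0.0995) did. With a pseudocount of 20 Dll3 (1.21, 0.108) and Notch1 (1.64, 0.0544) were not called. Notch4 was called without adult-derived replicate 2 (2.63, 0.0113).

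Set against pluripotent cells, the same cultures differed in 1 of the 10 genes, beside 20.4% of all genes higher and 9.77% lower. Notch2 was higher by 1.57 (SE 0.45, limma adjusted p = 0.0311), and its 4 values lay above both pluripotent arrays. Hey1 was at 0.84 (95% interval 0.20 to 1.49, limma adjusted p = 0.0516), with no overlap between the arrays. The intervals of the other genes spanned zero: Notch1 0.58 (-0.41 to 1.57), Notch3 -0.42 (-1.05 to 0.21), Dll1 0.36 (-0.24 to 0.97), Dll3 -0.37 (-1.33 to 0.59) and Jag1 0.03 (-0.44 to 0.50), and likewise Notch4, Hes1 and Hes5.

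Notch2 was not called without iPS cells, ES cells, adult-derived replicate 1, adult-derived replicate 2 or embryonic-derived replicate 3, with adjusted p from 0.0548 to 0.152 in limma. With the line as a replicate block 2 genes were called, Hey1 joining (0.84, limma adjusted p = 0.0437). Without the fibroblast array or either primary neurosphere array Hey1 was likewise called, which made 2. With the adult pair alone Hes5 was called (2.57, limma adjusted p = 0.0227), and with the embryonic pair alone 0 genes were. With a common median per array Notch3 was called as lower (-0.82, 0.0335) and Notch2 was not called. Notch4 was called without adult-derived replicate 2 (1.49, 0.033).

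Against GE neurospheres, which came from brain tissue, 6 of the 10 genes were lower in the fibroblast-derived cultures and 1 was higher, beside 12.8% of all genes lower and 15.6% higher. The difference was -6.74 for Hes5 (SE 0.70, limma adjusted p = 0.000414), -3.03 for Dll3 (0.00459), -2.98 for Hey1 (0.000768), -2.20 for Notch1 (0.0197), -1.73 for Dll1 (0.0071) and -1.57 for Notch3 (0.0123). Jag1 was higher by 2.12 (SE 0.26, 0.000862). In each of these 7 genes, all 4 fibroblast-derived arrays lay on the same side of the GE array. Hes1 was at 1.19 (95% interval -0.10 to 2.49), Notch4 at 2.41 (0.40 to 4.43, limma adjusted p = 0.0726) and Notch2 at 0.47 (-0.87 to 1.80), none of them called. Notch1 lost its call without embryonic-derived replicate 4 (limma adjusted p = 0.0507), and Notch4 was called without adult-derived replicate 2 (3.13, 0.00446) or replicate 1 (1.70, 0.0401). With the adult pair alone Dll1 was not called (-1.18, 0.0517).

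The same 6 genes and Jag1 were lower than in the neurospheres made from pluripotent cells. Against primary neurospheres 7 genes were lower and 0 higher, beside 14.3% and 15.6% of all genes. Hes5 stood at -5.57 (limma adjusted p = 0.000289), Dll3 at -2.58 (0.00249), Hey1 at -2.43 (0.000551), Dll1 at -2.37 (0.000491), Notch1 at -1.74 (0.0173), Notch3 at -1.30 (0.00836) and Jag1 at -0.75 (0.0254). Notch2 (0.59, 95% interval -0.44 to 1.63), Notch4 (0.12, -1.44 to 1.69) and Hes1 (0.01, -0.996 to 1.01) were not called. Jag1 lost its call without either primary neurosphere array, adult-derived replicate 2 or embryonic-derived replicate 4, and Notch1 without the iPS-derived primary neurospheres or embryonic-derived replicate 4. With the adult pair alone neither Jag1 (-0.52, 0.168) nor Notch1 (-1.53, 0.0666) was called.

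Against secondary neurospheres the count was again 7 lower and 0 higher, beside 16.7% and 17.0% of all genes. Hes5 was at -4.46 (limma adjusted p = 0.000599), Hey1 at -3.63 (9.04e-05), Dll3 at -2.37 (0.00365), Notch1 at -2.35 (0.00437), Dll1 at -1.85 (0.001305), Notch3 at -1.85 (0.00161) and Jag1 at -0.91 (0.0105). Notch4 was at 1.61 (95% interval 0.05 to 3.17, limma adjusted p = 0.104), Hes1 at -0.43 (-1.43 to 0.58) and Notch2 at -0.59 (-1.63 to 0.44). The median over the 10 genes was -1.85, beside 0.05 over all genes. Jag1 lost its call without the ES-derived secondary neurospheres (limma adjusted p = 0.0976) and with the adult pair alone (0.0683), and Notch4 was called without adult-derived replicate 2 (2.33, 0.00504). These 5 comparisons share the 4 fibroblast-derived arrays, and their values are set side by side.

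**Figure D2:**
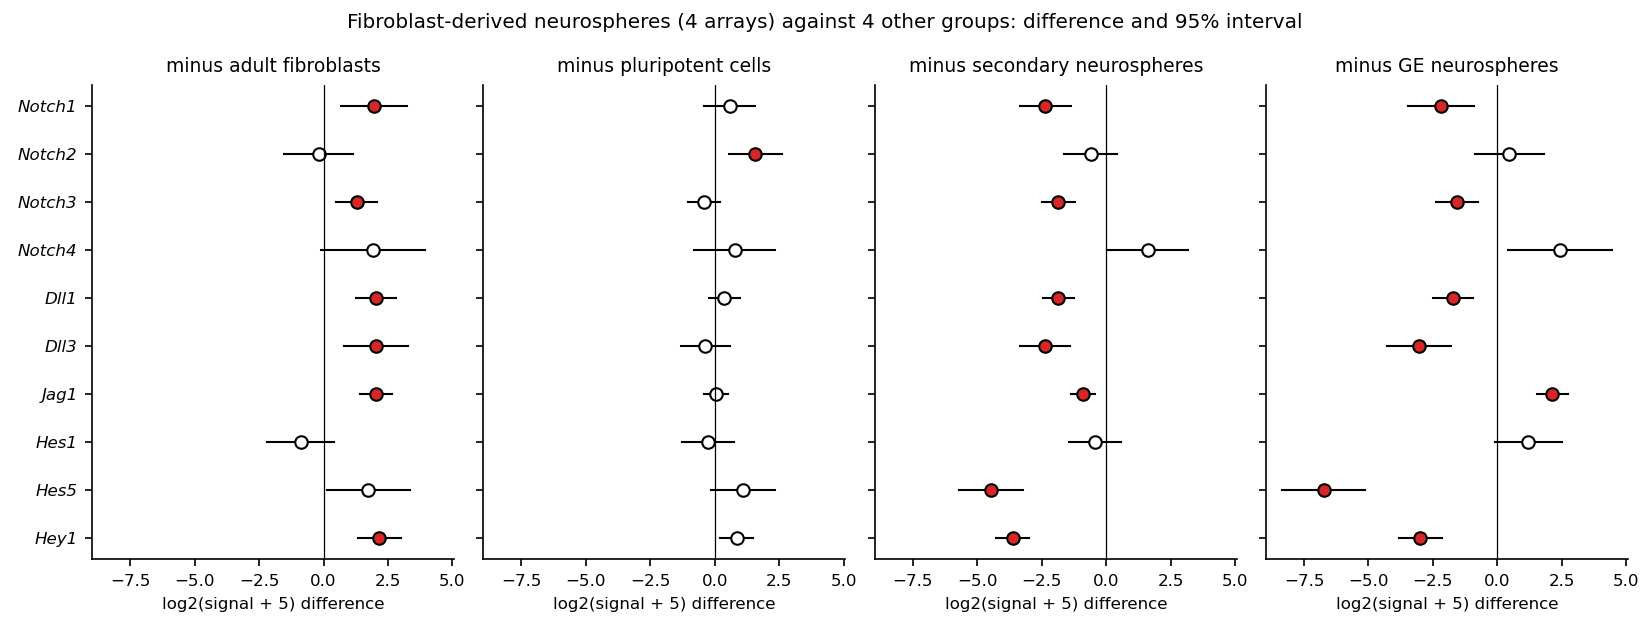
Difference of the fibroblast-derived neurospheres (4 arrays) from adult fibroblasts, pluripotent cells, secondary neurospheres and GE neurospheres, in log2(signal + 5), with the 95% interval as a bar and a filled point where the adjusted p is under 0.05. Hes5, Hey1, Dll1, Dll3, Notch1 and Notch3 lie below zero against both kinds of neurosphere shown, and Jag1 lies above zero against GE (2.12) and below it against secondary neurospheres (-0.91).

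The step from pluripotent cells to primary neurospheres was seen in both lines. Of the 10 genes 6 were higher and 0 lower, beside 19.3% of all genes higher and 10.8% lower. Hes5 was higher by 6.67 (SE 0.63, limma adjusted p = 0.000352), Hey1 by 3.28 (SE 0.33, 0.000436), Dll1 by 2.73 (SE 0.31, 0.000682), Notch1 by 2.32 (SE 0.50, 0.0109), Dll3 by 2.21 (SE 0.49, 0.0115) and Jag1 by 0.77 (SE 0.24, 0.039). Each line moved the same way in each of these genes; Hes5 differed by 7.23 in the iPS line and 6.10 in the ES line, and Hey1 by 3.61 and 2.95.

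Without the iPS-derived primary neurospheres Notch1, Dll3 and Jag1 were not called, which left 3. Jag1 was also not called without the ES-derived primary neurospheres, either pluripotent array or any fibroblast-derived array (limma adjusted p from 0.0534 to 0.142). Notch3 was at 0.88 (95% interval 0.16 to 1.61, limma adjusted p = 0.0663) and was called without the iPS cells (1.25, 0.0259). Notch2 (0.97, -0.22 to 2.17), Notch4 (0.65, -1.16 to 2.45) and Hes1 (-0.28, -1.44 to 0.88) were not called. The 2 lines went opposite ways for Hes1, at -1.33 in the iPS line and 0.78 in the ES line; each is 1 array against 1 and the difference between the lines was not tested.

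From primary to secondary neurospheres, 0 of the 10 genes were called in limma, beside 1.99% of all genes higher and 0.791% lower, and 1 of the 10 had an unadjusted p under 0.05. That gene was Hey1, at 1.20 (95% interval 0.46 to 1.94, limma adjusted p = 0.0876), from 343.4 to 603.0 in the iPS line and from 210.0 to 641.3 in the ES line. Dll1 was at -0.52 (-1.21 to 0.18) and Hes5 at -1.11 (-2.54 to 0.31), with -0.34 in the iPS line and -1.89 in the ES line. Notch2 was at 1.19 (-0.01 to 2.38), with a near-equal step of 1.17 in the iPS line and 1.20 in the ES line.

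Set against GE neurospheres, secondary neurospheres differed in 1 gene, beside 2.40% of all genes higher and 1.49% lower. Jag1 was higher by 3.04 (SE 0.29, limma adjusted p = 0.00307), with both arrays above the GE array; in a fit of only these 3 arrays it was not called (0.114). Hes5 was at -2.29 (95% interval -4.03 to -0.54, limma adjusted p = 0.154), and it was called without the iPS-derived secondary neurospheres, when the lower ES-derived array stood alone (-3.33, 0.0444). Notch1 (0.15, -1.25 to 1.55), Dll1 (0.12, -0.73 to 0.98) and Hey1 (0.65, -0.26 to 1.55) had intervals that spanned zero. Hes1 was at 1.62, with 125.1 and 216.4 in secondary against 50.2 in GE neurospheres. Notch2 was at 1.06, Notch4 at 0.81, Dll3 at -0.66 and Notch3 at 0.28. None of these last genes was called.

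Between the starting cell types, 5 of the 10 genes were higher in pluripotent cells than in adult fibroblasts and 0 were lower, beside 19.5% of all genes higher and 19.5% lower. Dll3 was higher by 2.39 (limma adjusted p = 0.0132), Jag1 by 2.01 (0.00131), Notch3 by 1.70 (0.00929), Dll1 by 1.66 (0.0087) and Hey1 by 1.32 (0.0288). Notch2 was at -1.76 (95% interval -3.22 to -0.30, limma adjusted p = 0.0585), and it was called with the line as a replicate block (0.0248). Without the ES cells Dll3 and Hey1 were not called, which left 3, and Hey1 was also lost without the iPS cells. In a fit of only these 3 arrays 1 gene, Jag1, was called.

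Origin from the iPS or the ES line, tested on the 6 arrays of both lines with a term for stage, called 0 of the 10 genes in limma, beside 0% of all genes higher and 0.00733% lower, and 0 of the 10 had an unadjusted p under 0.05. The widest difference was that of Notch2, at -0.80 for iPS minus ES (95% interval -1.68 to 0.09). Hes5 was at 0.67 (-0.54 to 1.88), Dll3 at 0.57 (-0.35 to 1.49) and Hes1 at 0.05 (-1.10 to 1.20).

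**Figure D3:**
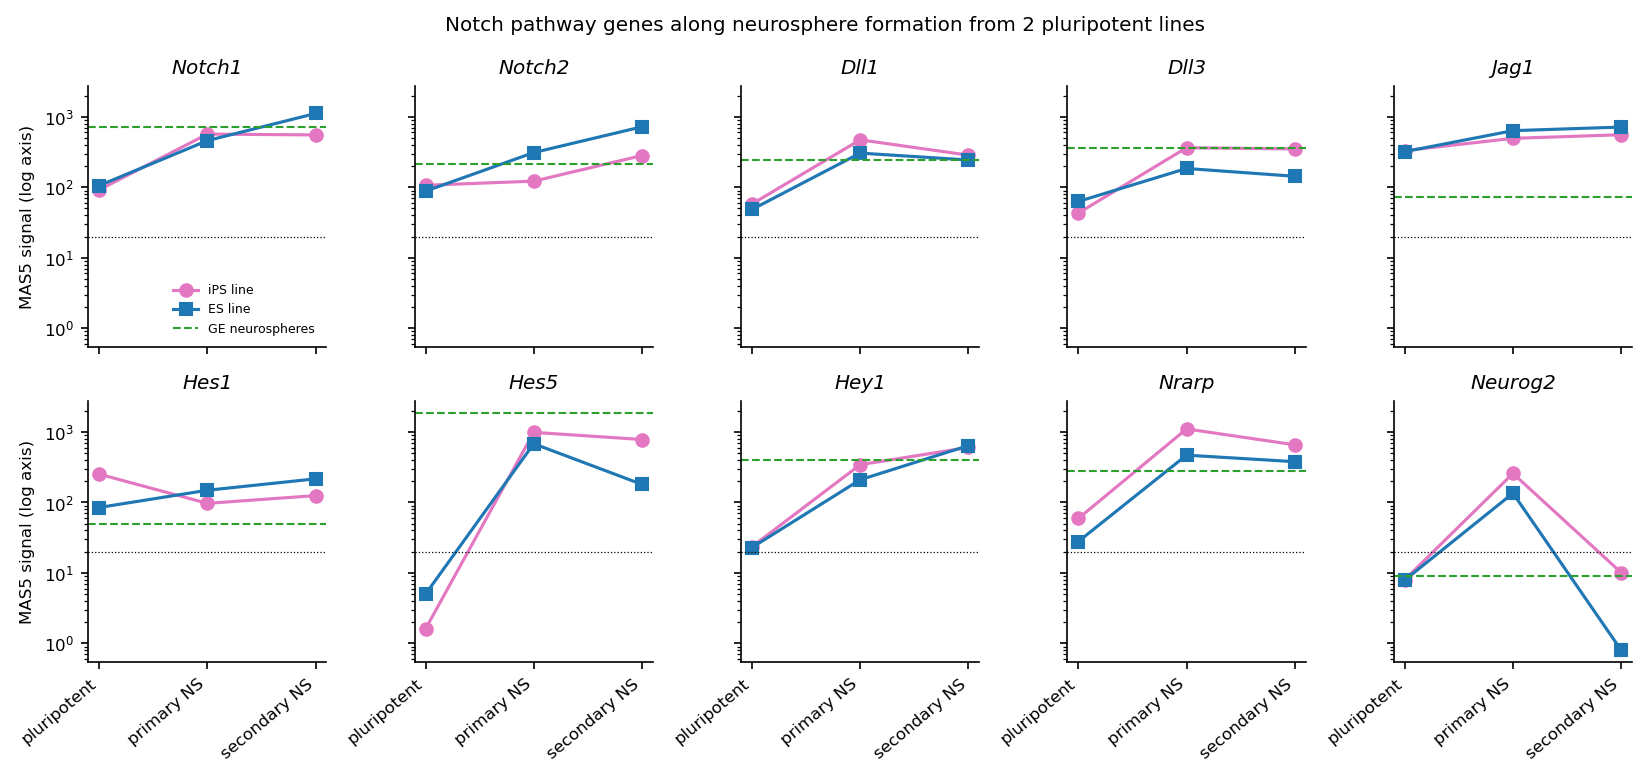
Signal (log axis) of 8 of the 10 genes and of Nrarp and Neurog2 in pluripotent cells, primary and secondary neurospheres (NS) of the iPS line (circles) and the ES line (squares), with the GE neurosphere array as a dashed line and a signal of 20 as a dotted line. Hes5 and Hey1 are higher in primary neurospheres than in pluripotent cells in both lines, Hes1 goes opposite ways in them, and Neurog2 is high in primary neurospheres only (258.2 and 135.3).

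Between adult and embryonic fibroblast-derived neurospheres limma called 0 of the 10 genes, beside 0.0659% of all genes higher in the adult pair and 0.403% lower, and 2 of the 10 had an unadjusted p under 0.05. These were Hes5 and Dll1. Hes5 was at 2.95 (95% interval 1.52 to 4.37, limma adjusted p = 0.117), from the values of 59.7 and 31.1 against 0.7 and 1.9. Dll1 was at 1.09 (0.39 to 1.79, limma adjusted p = 0.213). Hey1 was at 0.06 (-0.68 to 0.80). Only LIF alone was used for both sources, and in it Hes5 was 31.1 (adult) and 0.7 (embryonic); otherwise source and medium cannot be told apart. Fabp7, a radial glia gene, was 411.2 and 517.5 in the adult pair and 79.8 and 48.1 in the embryonic pair. Sox2, a factor of both neural stem and pluripotent cells, was 85.6 and 791.4 against 1825.8 and 2092.3, and the 8 pluripotency markers summed to 2793.9 and 7738.4 against 12057 and 12551. The part of these cells in the Hes5 values was not tested.

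Within each pair the media were compared with 1 array each and no test, and a gene was named where the log2 difference was 1 or more and 1 array reached 100. In the adult pair 2 of the 10 genes passed that rule, beside 3.93% of all genes. Notch1 was 301.7 with EGF and cAMP and 99.9 with LIF, a difference of 1.55, and Notch4 was 242.8 and 28.8, a difference of 2.87. The Notch4 difference rests on 1 probe set, since its others stayed under 20 on both arrays. In the embryonic pair 0 of the 10 genes passed it for LIF and cAMP against LIF alone, beside 1.34% of all genes; the widest differences were those of Hey1 (0.69), Notch2 (-0.67) and Hes1 (-0.65). Notch1 there was 107.8 with LIF and cAMP and 153.4 with LIF alone. Its dimmer probe set went the other way in this pair, at 53.5 and 42.2. In the adult pair that set gave 65.9 with EGF and cAMP and 17.5 with LIF. Each value is 1 array, and an effect of cAMP was not tested.

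The rest of the pathway was described by 64 further genes, of which 55 were tested. Across the 7 groups 34 of these 55 differed, beside 61.6% of all genes. Dner, a neuronal membrane protein that can act as a Notch ligand, had the smallest adjusted p (0.000242), followed by the corepressor Ctbp2 (0.000528) and Nrarp (0.000632), a Notch target that feeds back on the receptor. Rbpj, the DNA-binding partner of all 4 receptors, was present in every array at 283.8 to 1138.5, with the highest value in ES cells.

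In the step from pluripotent cells to primary neurospheres 16 of the 55 were higher and 3 lower, beside 19.3% and 10.8% of all genes, with a median of 0.16 against 0.05 over all genes. The higher ones came from every role: 2 of 7 other ligands, 3 of 5 glycosyltransferases that modify the receptor, 2 of 8 proteases that cut it, 2 of 14 genes of ligand or receptor trafficking, 1 of 7 of the nuclear complex, 4 of 10 corepressors and 2 of 4 further targets. Dner was higher by 5.56 (limma adjusted p = 0.000374), from 15.6 and 25.8 to 1749.6 and 798.2. Mib1, the ubiquitin ligase that activates Delta ligands, was higher by 1.88 (0.000517), and the corepressor Ctbp1 by 1.73 (0.000652). The acetyltransferases Kat2b and Kat2a and the corepressor Ctbp2 were lower (-1.33, -0.90 and -0.68).

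Against adult fibroblasts the fibroblast-derived neurospheres had 14 of the 55 higher and 1 lower, beside 15.0% and 8.21% of all genes. The higher ones held 4 of 7 genes of the nuclear complex and 4 of 10 corepressors, and no protease was called. Tle4, a Groucho-family corepressor that Hes proteins recruit, was higher by 4.75 (limma adjusted p = 0.00132), Ctbp2 by 1.80 (0.00189) and Dtx1, a Deltex ubiquitin ligase, by 2.47 (0.00272). The gene that was lower was Mfap5, a microfibril protein listed as a ligand because it binds Jagged proteins, at 3034.2 in fibroblasts and 11.8 to 102.4 in the neurospheres (-6.64, 0.00138). The median over the 55 was 0.28 against 0.22 over all genes.

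Against pluripotent cells 13 of the 55 were higher and 3 lower, beside 20.4% and 9.77% of all genes, and 5 of the 8 proteases were among the higher ones. Adam10, the protease that makes the first cut after ligand binding, was higher by 1.80 (limma adjusted p = 0.00277), Mib1 by 1.06 (0.00314) and the gamma-secretase subunit Psenen by 0.81 (0.00686). Dtx1 and the corepressors Ctbp2 and Tle3 were lower (-1.20, -0.97 and -0.86). The same 5 proteases were lower in pluripotent cells than in adult fibroblasts, a comparison that shares the pluripotent arrays.

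Against GE neurospheres 3 of the 55 were higher and 6 lower, beside 15.6% and 12.8% of all genes. Kat2b (1.52, limma adjusted p = 0.00245), Ctbp2 (1.41, 0.00286) and the nuclear complex gene Snw1 (1.01, 0.00859) were higher. Dner (-4.10, 0.00175), Dtx1 (-2.04, 0.00368) and Tle1 (-1.59, 0.00744) were lower. Against primary neurospheres 3 were higher and 12 lower, beside 15.6% and 14.3% of all genes, and against secondary neurospheres 7 and 13, beside 17.0% and 16.7%. Dner was lower in both (-4.12 and -4.54). Nrarp, at 102.3, 121.6, 78.6 and 88.5 in the fibroblast-derived arrays, was below the primary neurospheres (1105.1 and 469.3; -2.84, limma adjusted p = 0.00139) and above the fibroblasts (7.3) by 3.04 (0.00555). Between pluripotent cells and adult fibroblasts 11 of the 55 were higher and 12 lower, beside 19.5% of all genes in each direction. Secondary neurospheres had Tle2 and Neurl1a, a trafficking gene, higher than primary neurospheres (2 of 55) and higher than GE neurospheres (2 of 55). No pathway gene was called between adult-derived and embryonic-derived neurospheres (9 of 55 at an unadjusted p under 0.05 in limma) or between the lines (8 of 55).

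**Figure D4:**
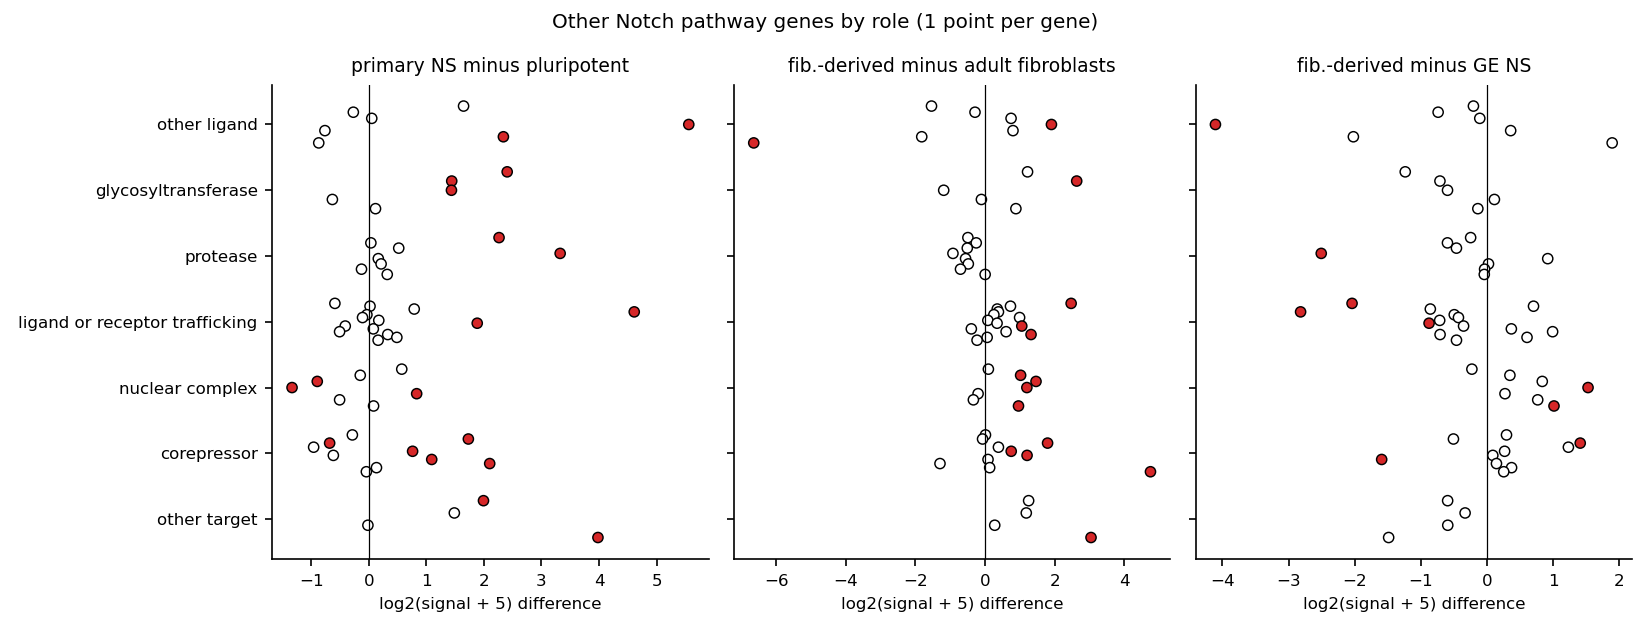
Differences in log2(signal + 5) of the 55 other pathway genes, 1 point per gene and 1 row per role, in 3 comparisons (NS, neurospheres; fib., fibroblast), with a filled point where the adjusted p is under 0.05. Filled points lie on the higher side in the first comparison for 16 of 19 genes and in the second for 14 of 15, and on the lower side in the third for 6 of 9.

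Proneural and neurogenic factors, among them genes that Hes and Hey proteins repress, were represented by 6 tested genes. All 6 were lower in fibroblast-derived than in primary neurospheres, beside 14.3% of all genes, and 4 of the 6 were higher in primary neurospheres than in pluripotent cells, beside 19.3%. The other comparisons of the fibroblast-derived cultures differed from this. Against GE neurospheres 0 were called. Against secondary neurospheres 1 was higher and 0 lower, beside 17.0% and 16.7% of all genes. That gene was Neurog1 (2.50, limma adjusted p = 0.039; mean signal 45.2 against 0.95). Against pluripotent cells 1 was higher and 2 lower, beside 20.4% and 9.77%. Against adult fibroblasts 1 was higher and 0 lower, beside 15.0% and 8.21%. Neurog2 was 8.0 and 7.9 in iPS and ES cells, 258.2 and 135.3 in primary neurospheres and 10.1 and 0.8 in secondary neurospheres, and it fell by 4.36 between primary and secondary neurospheres (limma adjusted p = 0.0113). It was 9.0 in GE neurospheres and 1.0 to 8.9 in the fibroblast-derived arrays. Between primary and secondary neurospheres 3 of the 6 factors fell (Neurog1, Neurog2 and Neurod4), beside 0.791% of all genes.

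Genes with the most similar pattern were read from Pearson's r of log2(signal + 5) over the 12 arrays, given as a description because the arrays share lines and groups and fall into neural and other cultures. Hes5 was most like Bcl7a (0.98), Lmo1 (0.98) and Rufy3 (0.97), Hey1 most like Rfx4 (0.98), Wnk2 (0.98) and Bhlhb9 (0.98), and Dll1 most like Map2 (0.99), Spsb4 (0.98) and Zfp41 (0.98). Rfx4 was 0.5 in fibroblasts and 1086.7 in GE neurospheres, and 37.4 to 124.9 in the fibroblast-derived arrays. Notch1 was most like 2500004C02Rik (0.97), Bhlhb9 (0.96) and Rfx4 (0.96), Notch3 like Ints6l (0.98), Adgrb1 (0.97) and Svip (0.95), and Dll3 like Zfp866 (0.97), Tub (0.97) and Map2 (0.97).

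Jag1 was most like Tenm4 (0.93), Racgap1 (0.92) and Stil (0.91). Notch2 was most like Zbtb11os1 (0.94), Hsd17b12 (0.92) and Fbn2 (0.92). Hes1 (Tmprss6, Mmp11 and Smtn, each 0.85) and Notch4 (Popdc3 at 0.88, Prph at 0.85 and Ap4e1 at 0.84) had lower values. Some of the genes named as similar barely reached the filter of 20. The signal was 2.6 to 23.0 for 2500004C02Rik, 9.8 to 21.8 for Tmprss6 and 3.6 to 24.1 for Popdc3. Fabp7 ran at 0.93 with Hes5 and Hey1, and at -0.27 with Hes1.

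A second probe set passed the filter for Notch1, Notch3, Jag1 and Hes5, with 1 more for Jag1. The brighter sets of Hes5 and Notch3, which were used above, carry suffixes that Affymetrix gives to sets that may share probes with other sequences. The second Hes5 probe set gave 538.5 in GE neurospheres, 403.3 and 255.0 in primary neurospheres, 226.5 and 90.4 in secondary neurospheres, 28.3 and 30.7 in the adult-derived pair and 5.6 to 12.5 in the embryonic-derived pair, pluripotent cells and fibroblasts, the same order of groups as the brighter one except within this last set. The Hes5 differences from GE, primary and secondary neurospheres were called on it too (-4.65, -3.91 and -2.78). On the dimmer Notch1 probe set, at 17.5 to 143.0, only the difference from secondary neurospheres stayed called among those of the fibroblast-derived cultures (-1.47, limma adjusted p = 0.0283), and the step to primary neurospheres was 0.83 (0.228). On the dimmer Notch3 probe set the differences from primary (-1.39) and secondary neurospheres (-2.29) stayed called, and those from fibroblasts (1.09, 0.145) and GE neurospheres (-1.35, 0.075) did not.

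Jag1 was read by 3 probe sets, and the dimmest, at 8.3 to 43.0, went against the brightest in 2 comparisons. On it Jag1 was lower in fibroblast-derived neurospheres than in pluripotent cells (-0.96, limma adjusted p = 0.0324), against 0.03 on the brightest, and stood at -0.38 (0.413) in primary neurospheres against pluripotent cells, against 0.77. The intermediate Jag1 probe set gave -0.56 (0.129) and 0.78 (0.0754) for the same comparisons. Against GE neurospheres the 3 probe sets gave 2.12, 1.91 and 0.72 for the fibroblast-derived cultures, and the last was not called (0.178). The dimmest set also gave no call for Jag1 against fibroblasts (0.33, limma adjusted p = 0.549), primary neurospheres (-0.59, 0.154) and secondary neurospheres (-0.82, 0.0526), nor for secondary against GE neurospheres (1.54, 0.0753), whereas the intermediate set kept these 4 calls.

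**Figure D5:**
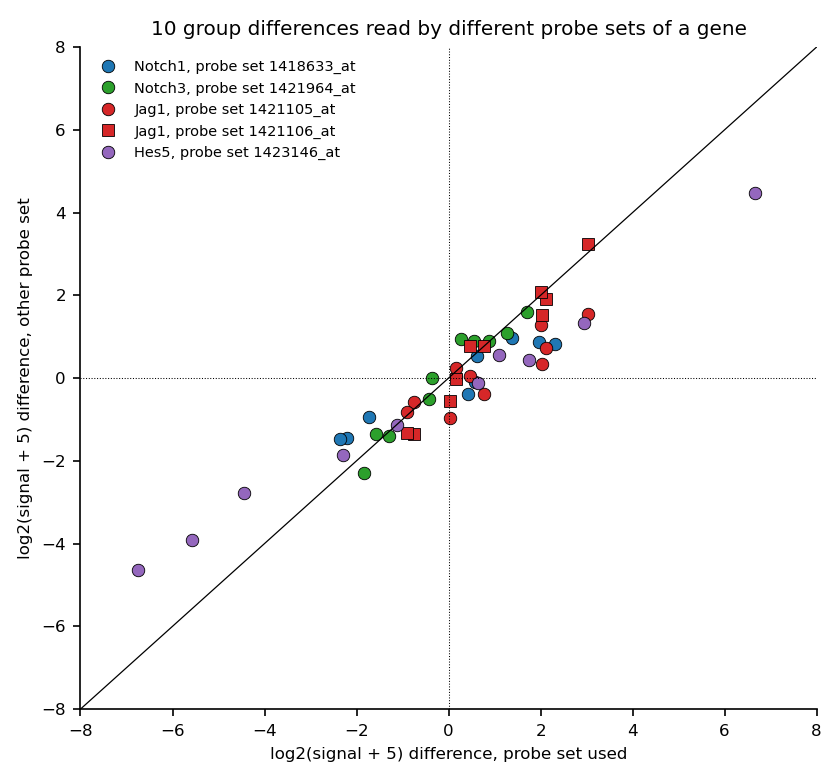
Each point is 1 of 10 group differences, in log2(signal + 5), read by the probe set used (horizontal) and by another probe set of the same gene (vertical), with the line of equality. Hes5 keeps its sign in its wide differences and is compressed on its dimmer probe set (-6.74 against -4.65), and the dimmest Jag1 probe set has points on the other side of zero.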

How the data were processed

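RNA of 12 cultures in 7 groups was hybridised to Affymetrix arrays. The submitters' processing notes name MAS5 and Affymetrix Expression Console 1.1 as the source of the deposited signal intensities, and the genome build is not given in the sources used here. The deposited intensities are linear and have a 2% trimmed mean of 100 on every array. Of 45101 probe sets, 34945 name 1 gene, 932 several and 9160 none, and 64 are controls. Per gene the single-gene probe set with the highest mean signal was kept, and 13650 genes reached 20 on at least 1 array.

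Values were tested as log2(signal + 5) with limma 3.58.1 (R 4.3.3; lmFit, eBayes with trend), 2-sided, Benjamini-Hochberg adjusted, in 1 fit of all arrays; adult and embryonic fibroblast-derived pairs were weighted equally. Origin was tested on 6 arrays. The fits had 5 and 2 residual degrees of freedom. The code was tested on simulated data. The number of arrays limits the precision. All 10 members were tested in every comparison, but not every uncalled member is given by value in each. Other pathway genes were named as the 3 called with the smallest adjusted p per direction, and similar genes as the 3 with the highest r per member; Rbpj, Nrarp outside those, Rfx4 and single endothelial markers were chosen after their values were seen. The members and lists were chosen with earlier results of these data known. Numbers 1 and 2 of the pluripotent, primary and secondary groups are the iPS and the ES line, and so pair these samples; the correlations of deviations were 0.25, 0.06 and 0.43. Alternatives changed the scaling, pseudocount, filter, probe set, arrays fitted and replicate block.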

Additional observations from a re-analysis of the deposited data

Results flagged for a closer look

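Hes1 went opposite ways in the lines from pluripotent cells to primary neurospheres. The difference was -1.33 on the log2(signal + 5) scale in the iPS line, from 252.2 to 97.1, and 0.78 in the ES line, from 84.8 to 149.0. Each value is 1 array against 1, and the difference between the lines was not tested. Among the 4 fibroblast-derived arrays, Dixon's test at its 95% critical value set no array of any of the 10 genes apart.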

How the results depend on the processing

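Of 2465 values of single genes under the alternatives, 2354 kept their side of the threshold with no call reversed, 78 lost a call, 31 gained one and 2 turned sign with 1 of the values called. In all 63 values turned sign, and in 61 of them neither value was called. Both turns that involve a call were those of the dimmest Jag1 probe set: -0.96 for fibroblast-derived neurospheres against pluripotent cells (adjusted p = 0.0324) and -0.38 for primary neurospheres against pluripotent cells (0.413). Of the 10 genes, 6 were called between fibroblast-derived neurospheres and adult fibroblasts, and 3 after quantile normalization or scaling to a common median, with 3 to 7 when 1 array was left out. Against pluripotent cells 1 was called, and 0 after quantile normalization or with the embryonic pair alone, 2 with a pseudocount of 1, a filter at 100, the mean of probe sets, the replicate block or the adult pair alone, and 0 to 2 when 1 array was left out. Between pluripotent cells and fibroblasts 5 were called, 3 with a pseudocount of 20, 1 in a fit of only the arrays compared, and 3 to 6 when 1 array was left out. Between secondary and GE neurospheres 1 was called, 0 in a fit of only those arrays, and 1 to 2 when 1 array was left out; between primary neurospheres and pluripotent cells 6 were called, and 3 to 6. The cause of these changes was not tested. The replicate block changed no other call than those given for Hey1 and Notch2, and for iPS minus ES origin it was not run, since the block is the contrast itself. Groups of 1 array and the number of arrays limit these tests, and signals under 20 carry little information on fold changes.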
